A study of Mus musculus and Acomys cahirinus with 84 samples.

Results

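The 10 genes described here encode the enzymes that write and keep repressive chromatin: Ezh2, Eed and Suz12 of Polycomb repressive complex 2 (PRC2), the DNA methyltransferases Dnmt1, Dnmt3a and Dnmt3b, the maintenance cofactors Uhrf1 and Hells, and the histone H3 lysine 9 (H3K9) methyltransferases Suv39h1 and Suv39h2. They were chosen by symbol, and all 10 were found, as 10 of 56980 gene rows counted in mouse and 10 of 19818 counted in the spiny mouse Acomys cahirinus. RNA-seq was made of primary skin fibroblasts, cells grown out of the animals' skin with no immortalising agent named in the labels, from C56BL6 mice, wild mice and A. cahirinus. In each of the 3 populations there were 4 libraries of each of 7 groups, 84 in all. At 24 h the groups were untreated cells (0 Gy) and cells given 10 Gy or 20 Gy of gamma irradiation; at 12 d they were untreated, 10 Gy and 20 Gy cells and an untreated culture that had been passaged, which is to say replated. The labels give no age, sex or genotype, and each replicate number carries 1 animal code in the library names of a population, so that groups of a population share 4 animals. All 24 h libraries were of batch B1 and all 12 d libraries of batch B2, so the 2 times were never tested against each other, batch and time being confounded.

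Depth ran from 26653561 to 39819857 counts in C56BL6, 17419339 to 35984517 in wild mouse and 25552727 to 52857478 in A. cahirinus. All 10 fibroblast markers were present in every population, among them Col1a1, Pdgfra and Thy1. The 4 muscle markers Des, Myh3, Myod1 and Myog were all expressed in A. cahirinus, where their summed level ran from 859.8 to 7569 CPM (reads of a gene scaled to a common library size in the usual counts-per-million unit), against 1.793 to 47.32 CPM in C56BL6 and 0.948 to 1266 CPM in wild mouse. The library labelled wild mouse 24 h 10 Gy replicate 1 stood apart, with 17843 genes detected against 21846 to 22253 in the other 3 of its group. The libraries labelled wild mouse 12 d replicate 1 went against their label: 38 genes with at least 20 counts in all libraries of that number were at no more than 1 count in all 24 h libraries of the same animal code, or the reverse, while 0 genes separated them from the 24 h libraries of number 4. No other number in any population differed from its own code in more than 0 genes by this rule, which in A. cahirinus separates animals poorly, since different numbers there differed in 0 to 2 genes. Numbers 1 and 4 of wild mouse at 12 d may therefore hold 1 animal, and the counts of genes called in wild mouse at 12 d are given with them apart and summed. The rule did not separate C56BL6 numbers 3 and 4 either, which differed in 0 genes at each time and in 0 and 2 genes across times, where the other pairs of C56BL6 numbers differed in 4 to 32. Ddx3y, a Y-linked gene looked up after other values were seen, had 1427 to 2592 counts in all A. cahirinus libraries, 0 in all wild mouse libraries, 0 to 2 in C56BL6 numbers 1 and 2 and 2377 to 4162 in numbers 3 and 4, so animals with and without it were spread unevenly over the populations.

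As background, PRC2 puts methyl groups on lysine 27 of histone H3 (H3K27): Ezh2 is its catalytic subunit, Eed reads the mark and stimulates the enzyme, and Suz12 is the scaffold. After DNA replication, Uhrf1 binds hemimethylated CpG sites and brings in Dnmt1, which copies the methylation onto the new strand, while the helicase-like remodeller Hells opens packed DNA for it. Dnmt3a and Dnmt3b set new methylation, and Suv39h1 and Suv39h2 put H3K9 trimethylation on pericentromeric repeats. Several of these genes are known E2F targets that are transcribed in dividing cells, and loss of Ezh2 in ageing fibroblasts is known to release the Cdkn2a locus.

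The promoters were read because most of these genes moved together in the libraries, as described further on. The core E2F motif was searched in its variants, that is as TTCCCGC, then as TTCGCGC, further as TTGCCGC and also as TTGGCGC, on both strands of the 300 bases from 250 before to 50 after the start of each gene's canonical transcript in the mouse genome (GRCm39, GENCODE). That start can lie inside the counted gene: for Dnmt1, on the minus strand of chromosome 9, it is at 20864275, while the counted gene begins at 20871184. It was found in 5 of the 10 genes, Ezh2, Suz12, Uhrf1, Hells and Suv39h2, and in 11.2% of 21757 promoters of that length. A longer form, TTTCCCGC and the 3 like it with another T in front, was found in 2 of 10, Suz12 and Hells, and in 2.82% of promoters, and the core was searched after that result had been seen. The cell-cycle homology element TTTGAA was found in 4 of 10, Ezh2, Eed, Suz12 and Dnmt3b, and in 17.1% of promoters. A match is a string of letters and no measured binding. The following lines give the 150 bases before the start of Ezh2 (chr6:47572268-47572417, minus strand) and Suv39h2 (chr2:3476086-3476235, minus strand), shown as the genes whose matches lie closest upstream of the start, and the matched windows of Suz12 (chr11:79883704-79883730, plus strand), Uhrf1 (chr17:56610279-56610305, plus strand) and Hells (chr19:38919363-38919389, plus strand), with the E2F core in capitals.
Ezh2: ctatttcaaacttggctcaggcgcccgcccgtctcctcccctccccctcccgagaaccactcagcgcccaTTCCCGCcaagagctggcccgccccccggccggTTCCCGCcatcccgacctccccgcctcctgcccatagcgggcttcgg
Suv39h2: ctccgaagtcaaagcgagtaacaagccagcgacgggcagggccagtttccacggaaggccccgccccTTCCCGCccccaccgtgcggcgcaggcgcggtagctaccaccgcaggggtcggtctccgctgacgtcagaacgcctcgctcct
Suz12: acccctcattTTCCCGCgaattcagtt
Uhrf1: gctttctcgcTTCCCGCcacagcgcca
Hells: ccaccgggttTTCCCGCgaaagagaag
The capitals stand at -80 and -47 from the start in Ezh2, which holds a further match at -236, at -83 in Suv39h2, at -182 in Suz12, and at 15 bases past the start in both Uhrf1 and Hells. Hells holds a further match, TTCGCGC on the opposite strand, at 33. Ezh2 and Uhrf1 were counted on chromosome 6 (47507073 to 47572275, minus strand) and chromosome 17 (56610321 to 56630486, plus strand) of GRCm39, and on chromosomes 3 and 16 of the A. cahirinus assembly AcoCah2.

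Levels per length put the maintenance and PRC2 genes above the de novo methyltransferases in untreated cells at 24 h. On the scale of CPM per kilobase of counted exon, in C56BL6 Uhrf1 stood at 18 ± 2.07 (SD, n = 4), Suz12 at 17.5 ± 1.75 and Dnmt1 at 16.1 ± 1.34, and the libraries of neighbours in that order overlapped. Eed followed at 11.4 ± 1.48, Ezh2 at 8.82 ± 1.54, Hells at 6.11 ± 1.07 and Suv39h1 at 4.73 ± 0.464, each overlapping the next. Dnmt3a at 1.82 ± 0.133, Suv39h2 at 1.19 ± 0.179 and Dnmt3b at 0.313 ± 0.0572 closed the order without overlap between them. Wild mouse and A. cahirinus held the same 7 genes above Dnmt3a, and in A. cahirinus Dnmt3b (0.6 ± 0.0834) and Suv39h2 (0.476 ± 0.180) overlapped. The order depends on the counted length, which for Dnmt3a was 16642 bp in mouse and 22365 bp in A. cahirinus. For Suv39h1 it was 5270 and 3821 bp. In CPM, Dnmt3a and Suv39h1 were at 30.27 and 24.91 in C56BL6, 28.19 and 27.63 in wild mouse, and 23.01 and 22.59 in A. cahirinus. At 12 d in untreated cells Eed stood at 9.45 ± 2.41 and Uhrf1 at 2.82 ± 2.27 in C56BL6, and Suz12 at 7.57 ± 1.09 and Uhrf1 at 2.07 ± 1.74 in wild mouse. In A. cahirinus at 12 d Uhrf1 was at 5.58 ± 0.658, between Dnmt1 (7.69 ± 1.41) and Ezh2 (5.30 ± 0.796).

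**Figure D1:**
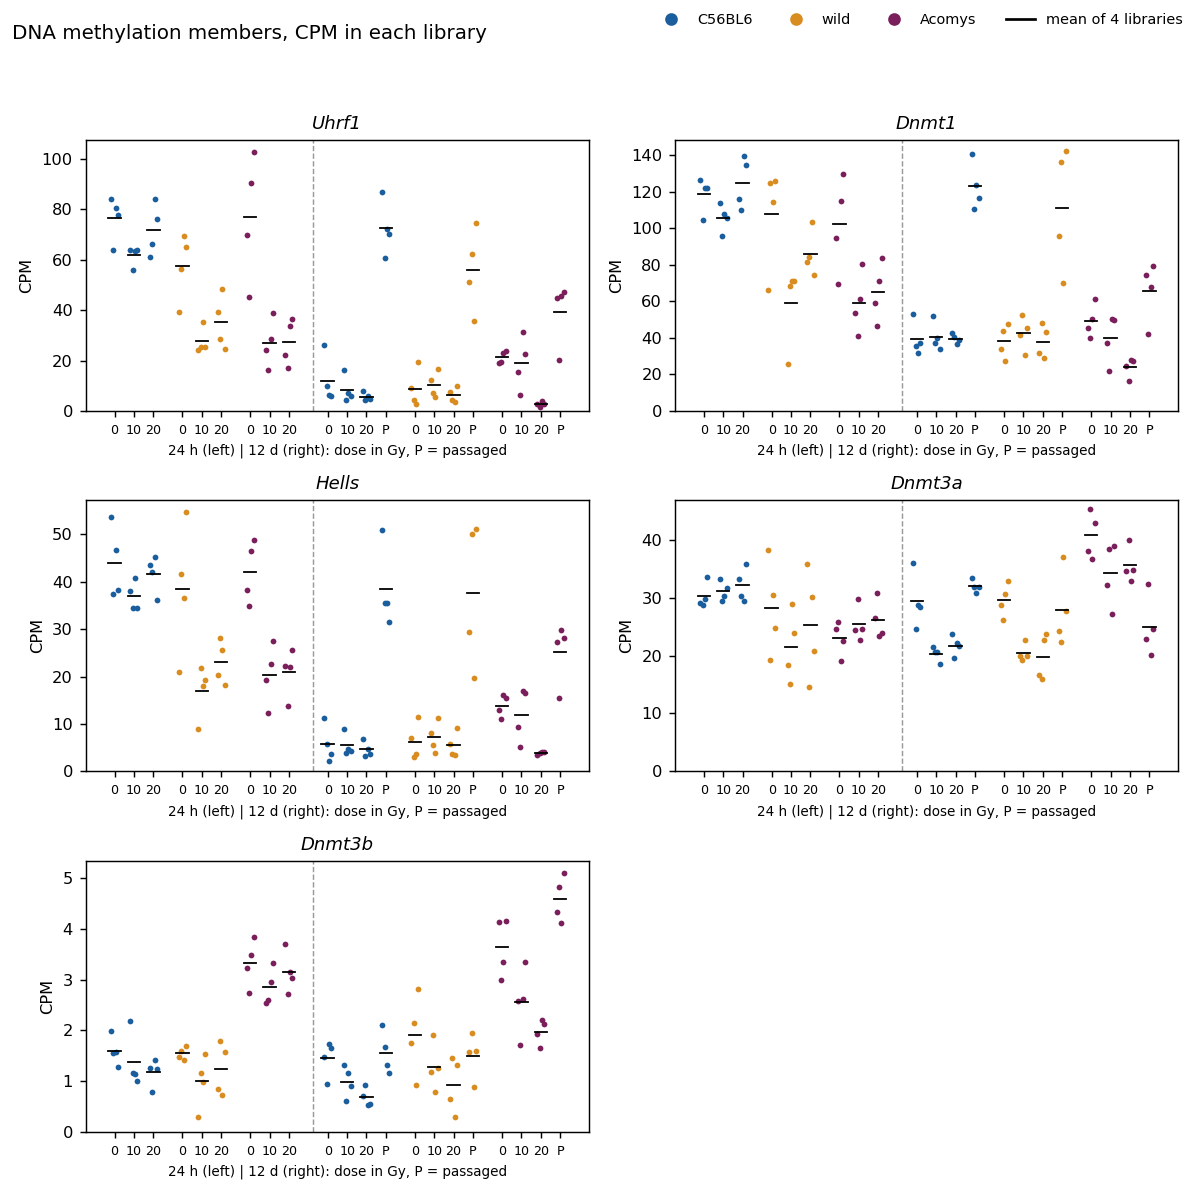
CPM (linear axis from 0) of the 5 DNA methylation genes in each of the 84 libraries; points are libraries coloured by population, short black lines are means of 4, and the dashed line parts 24 h from 12 d. In the mice Uhrf1, Dnmt1 and Hells are low in the 12 d cultures that were not passaged and high in the passaged ones. For the same genes in A. cahirinus, the untreated and lower-dose libraries at 12 d overlap the passaged ones, and the higher-dose libraries lie wholly below them. Dnmt3a differs there, its passaged libraries lying below the untreated and the higher-dose ones.

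**Figure D2:**
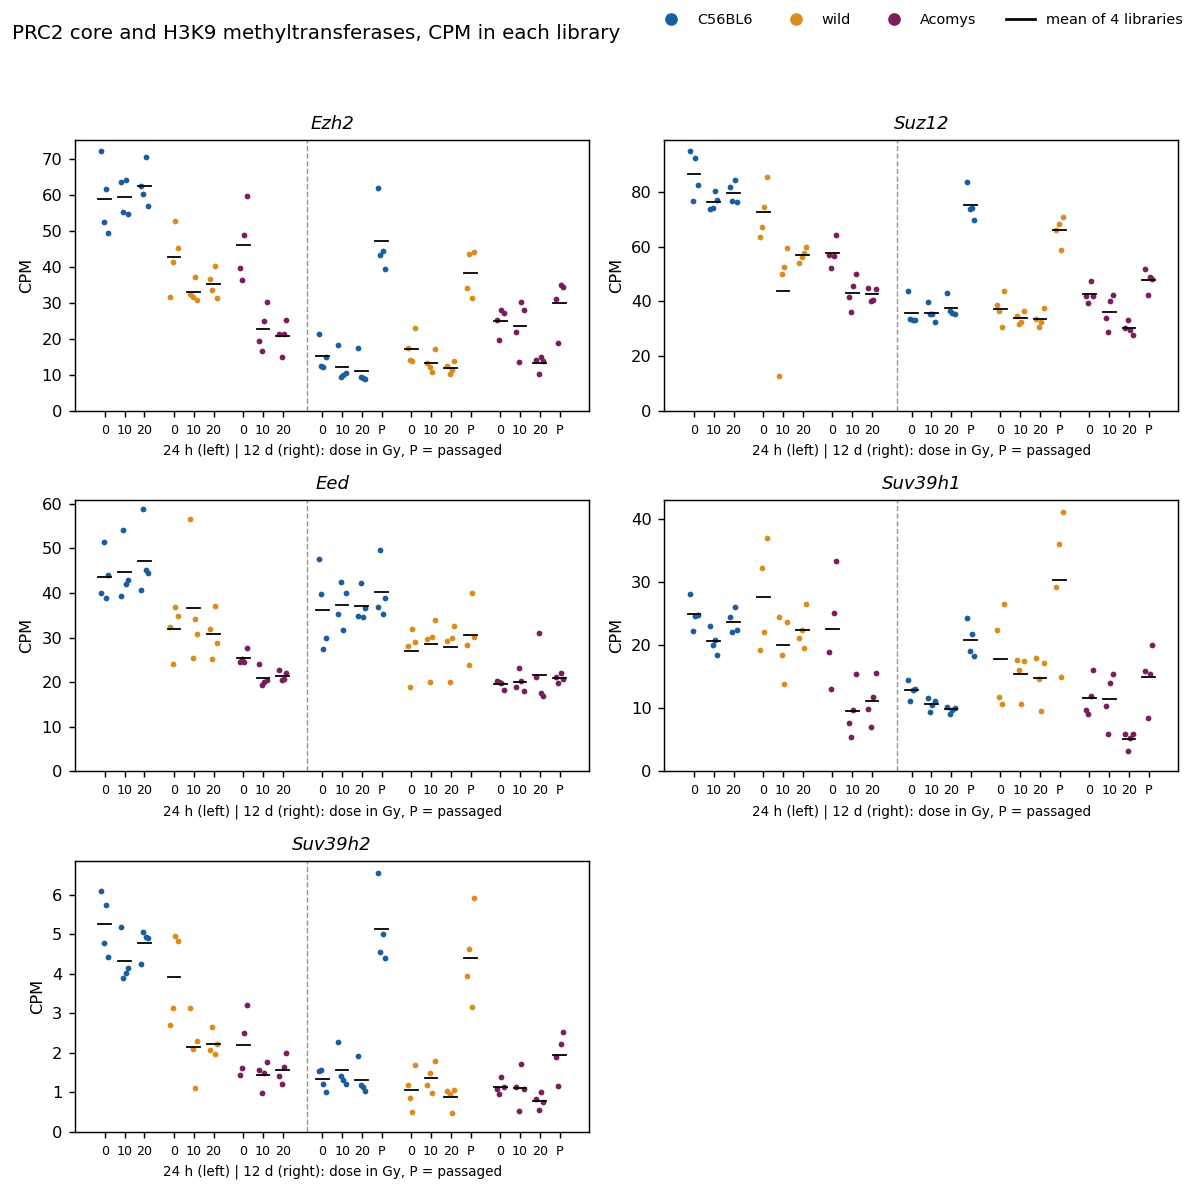
CPM (linear axis from 0) of the PRC2 core genes and the H3K9 methyltransferases in each of the 84 libraries, drawn as points by population with the mean of 4 as a short black line. Eed lies within 16.98 to 58.71 CPM throughout, while in the mice at 12 d Ezh2 and Suv39h2 are high in the passaged cultures only; in A. cahirinus passaged and untreated libraries overlap.

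At 24 h after irradiation 3 of the 10 genes (10 Gy) and 4 (20 Gy) fell in A. cahirinus, and 0 passed the test in either mouse population. After 20 Gy, edgeR's quasi-likelihood test called 4 of 10 genes lower in A. cahirinus at an adjusted p under 0.05, namely Uhrf1, Ezh2, Hells and Suz12, and after 10 Gy it called 3, Uhrf1, Ezh2 and Hells. Among all genes tested, 2.7% were called lower after 20 Gy and 3.1% after 10 Gy. Uhrf1 read 69.69, 45.34, 90.33 and 102.7 CPM in the untreated A. cahirinus libraries, 24.24, 16.23, 28.51 and 38.91 CPM after 10 Gy, and 22.23, 17.22, 33.52 and 36.58 CPM after 20 Gy. Every irradiated library lay below every untreated library. Its fitted log2 change was -1.49 ± 0.30 (SE; adjusted p = 0.0308) after 10 Gy and -1.47 ± 0.29 (adjusted p = 0.0289) after 20 Gy. In bulk RNA, fewer cells of a kind and less RNA per cell cannot be told apart.

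Ezh2 read 39.58, 36.32, 48.93 and 59.62 CPM in untreated A. cahirinus cells at 24 h and 21.28, 15.06, 21.41 and 25.20 CPM after 20 Gy, with no overlap between the groups. Its log2 change was -0.99 ± 0.21 (adjusted p = 0.0372) after 10 Gy and -1.13 ± 0.18 (adjusted p = 0.0136) after 20 Gy. Hells went from 42.12 ± 6.569 to 20.94 ± 5.031 CPM (SD, n = 4) after 20 Gy, a log2 change of -0.99 ± 0.18 (adjusted p = 0.0199), and the groups did not overlap. Its change after 10 Gy was -1.02 ± 0.22 (adjusted p = 0.0399). Suz12 moved less, from 57.64 ± 4.935 to 42.60 ± 2.507 CPM, with a log2 change of -0.41 ± 0.08 (adjusted p = 0.0225).

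Dnmt1 and Suv39h1 passed at 24 h with the animal as a block and not without it. Dnmt1 read 94.73, 69.60, 115.1 and 129.6 CPM in untreated A. cahirinus libraries and 58.89, 46.57, 71.01 and 83.63 CPM after 20 Gy, in the order of animals 1 to 4, and was lower in each of the 4 animals although the groups overlapped. Its log2 change of -0.63 ± 0.21 had an adjusted p of 0.160, and 2.9e-05 with the animal as a block. Suv39h1 changed by -1.0 ± 0.30 after 20 Gy (adjusted p = 0.125, with the block 1.52e-05) and by -1.22 ± 0.35 after 10 Gy (adjusted p = 0.120, with the block 1.14e-07). With the block, 8 of 10 genes were called lower after 10 Gy, Eed and Suv39h2 among them, against 12.4% of all genes, and 7 after 20 Gy, against 10.8%. The 2 de novo methyltransferases were not among them: Dnmt3a stood at 23.01 ± 2.944 CPM untreated and 26.10 ± 3.346 CPM after 20 Gy, and Dnmt3b at 3.330 ± 0.463 and 3.150 ± 0.410 CPM. Uhrf1, Ezh2, Hells and Suz12 were lower in all 4 animals at both doses. Without the block, and with 3 animals in each group, leaving out number 1 or number 3 left 0 calls at either dose, leaving out number 4 left 1, and leaving out number 2 gave 4 calls after 10 Gy and 6 after 20 Gy. DESeq2 called 6 genes at each dose. The share of all genes was not taken for DESeq2 or for the fits that left out a number.

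Mki67, a marker of dividing cells, was at 297.9 ± 20.30 CPM in the untreated A. cahirinus cells and 76.07 ± 21.87 CPM after 20 Gy, and 21 of 24 reference genes of DNA replication and division were called lower. Summed muscle markers ran from 859.8 to 2855 CPM untreated and from 1086 to 3462 CPM after 20 Gy. The part of either in the changes of the 10 genes was not tested.

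In C56BL6 at 24 h edgeR called 0 of 10 genes at either dose, against 0.007% of all genes after 10 Gy and 0.0895% after 20 Gy, and DESeq2 called 0. At an unadjusted p under 0.05 there were 2 genes after 10 Gy, Uhrf1 and Suv39h1, and 0 after 20 Gy, where 7.82% and 9.82% of all genes were. With the animal as a block, 3 genes were lower after 10 Gy, Dnmt1, Suv39h1 and Uhrf1, against 6.11% of all genes. After 20 Gy the block called 0, against 17.6% of all genes in either direction. Uhrf1 read 84.11, 63.98, 80.59 and 77.65 CPM untreated, 63.79, 56, 63.45 and 64.03 CPM after 10 Gy and 61.25, 66.35, 84.14 and 76.12 CPM after 20 Gy. The 20 Gy libraries spanned the untreated ones. Mki67 was at 228.7 ± 29.41 CPM untreated and 207.5 ± 32.19 CPM after 20 Gy in these cells.

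In wild mouse at 24 h edgeR called 0 of 10 genes at either dose and 0% of all genes. Unadjusted p was under 0.05 for 3 genes after 10 Gy (Dnmt1, Uhrf1 and Hells) and 4 after 20 Gy (Suz12, Uhrf1, Hells and Suv39h2), all lower, where 4.18% and 5.91% of all genes were, and DESeq2 called 1, Uhrf1, after 10 Gy and 0 after 20 Gy. With the animal as a block, 0 of the 10 genes and 0% of all genes were called after 10 Gy. The same 4 genes were called after 20 Gy, against 5.19% of all genes called lower. Uhrf1 read 39.26, 56.53, 69.27 and 65.07 CPM untreated, 24.32, 25.31, 35.20 and 25.55 CPM after 10 Gy and 39.19, 28.64, 48.55 and 24.67 CPM after 20 Gy. The 10 Gy libraries all lay below the untreated ones, and the 20 Gy libraries overlapped them. The 10 Gy library of replicate 1, which stood apart, held 25.89 CPM of Dnmt1 against 68.59 to 71.29 CPM in the other 3 of its group, 12.86 CPM of Suz12 against 50.22 to 59.41 CPM, and 56.61 CPM of Eed against 25.37 to 34.09 CPM. Leaving that number out also gave 0 calls after 10 Gy.

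The difference between populations in the 24 h response to 20 Gy was tested as an interaction. The fitted change was lower in A. cahirinus than in C56BL6 for 2 of 10 genes, against 2.09% of all genes. The log2 differences were -1.23 ± 0.23 for Ezh2 (adjusted p = 0.0106) and -1.39 ± 0.33 for Uhrf1 (adjusted p = 0.0415). Mean Ezh2 did not fall in C56BL6, at 58.91 CPM untreated and 62.54 CPM after 20 Gy. With the block 7 genes differed, against 16.8% of all genes, and leaving out single numbers gave 0 (number 3) to 2 calls. Against wild mouse edgeR called 0 of 10 genes and 0% of all genes (1 gene, Ezh2, at an unadjusted p under 0.05, as were 5.16% of all genes, and 0 by DESeq2), and 3 with the block, against 7.25%. Wild mouse and C56BL6 differed in 0 of 10 genes, with 0% of all genes called, 1 gene (Suv39h2) at an unadjusted p under 0.05, as were 1.61% of all genes, and 0 by DESeq2. All A. cahirinus libraries carried Ddx3y and no wild mouse library did, so sex and population cannot be told apart between them. C56BL6 held animals of both kinds, and the part of sex in its differences was not tested. Nor was the part of the muscle markers in any of the population differences.

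At 12 d, 7 of 10 genes fell in A. cahirinus after 20 Gy, 3 in C56BL6 and 0 in wild mouse. The A. cahirinus genes were Uhrf1, Hells, Suv39h1, Dnmt1, Ezh2, Dnmt3b and Suz12, while 18.1% of all genes were called lower. Uhrf1 read 18.82, 19.37, 22.97 and 23.78 CPM untreated and 2.897, 1.468, 3.885 and 2.677 CPM after 20 Gy, and the groups lay far apart. The log2 change was -2.93 ± 0.27 (adjusted p = 0.000313), which is 7.63-fold lower. Hells fell from 13.83 ± 2.328 to 3.901 ± 0.277 CPM (log2 -1.80 ± 0.15, adjusted p = 0.000208), and its 4 irradiated libraries lay within 3.520 to 4.155 CPM. Dnmt1, the maintenance enzyme itself, read 45.36, 40.05, 50.08 and 61.27 CPM untreated and 24.54, 16.52, 27.97 and 27.41 CPM after 20 Gy, with no overlap. Its log2 change was -1.01 ± 0.19 (adjusted p = 0.0057).

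Among the histone methyltransferases of A. cahirinus at 12 d, Suv39h1 changed by -1.18 ± 0.24 (adjusted p = 0.00773) and Ezh2 by -0.90 ± 0.15 (adjusted p = 0.00363). Ezh2 read 25.36, 19.72, 28.15 and 27.15 CPM untreated and 14.17, 10.22, 14.85 and 13.75 CPM after 20 Gy, so that every irradiated library was lower. Suz12 changed by -0.47 ± 0.09 (adjusted p = 0.00584), and Dnmt3b by -0.86 ± 0.18 (adjusted p = 0.00915). The other 3 did not pass: Suv39h2 had a log2 change of -0.50 ± 0.25 (adjusted p = 0.163), Dnmt3a was at 40.73 ± 4.015 CPM untreated and 35.55 ± 3.046 CPM after 20 Gy, and Eed at 19.60 ± 0.975 and 21.71 ± 6.490 CPM. Leaving out a number left 5 to 7 calls. Mki67 was at 57.84 ± 9.221 CPM untreated and 4.256 ± 1.471 CPM after 20 Gy, 22 of 24 replication and division genes were called lower, and summed muscle markers ran from 2300 to 5292 CPM untreated and from 1165 to 7569 CPM after 20 Gy. Their part in the result was not tested.

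After 10 Gy, edgeR and DESeq2 called 0 of 10 genes in A. cahirinus at 12 d, against 2.87% of all genes, with 1 gene (Dnmt3b) at an unadjusted p under 0.05, as were 21.8% of all genes. With the block 2 were lower, Dnmt3a and Dnmt3b, against 13.4% of all genes. Uhrf1 read 15.59, 6.395, 31.29 and 22.53 CPM after 10 Gy, a range that took in all 4 untreated libraries, and animal 2 was the lowest. Set directly against 10 Gy, 20 Gy gave 0 calls (5 genes at an unadjusted p under 0.05: Ezh2, Dnmt1, Uhrf1, Hells and Suv39h1, where 14.1% of all genes were), against 0.457% of all genes called, with a log2 difference for Uhrf1 of -2.77 ± 0.49 (adjusted p = 0.058). The 20 Gy libraries of Uhrf1 all lay below those of 10 Gy. With the block those 5 genes were called lower, against 9.62% of all genes. DESeq2 called 3, and leaving out animal 2 gave 6 calls where leaving out another animal gave 0.

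In C56BL6 at 12 d, 3 genes were lower after 20 Gy, Dnmt3b, Dnmt3a and Suv39h1, where 13.6% of all genes were called lower. Dnmt3a, a de novo methyltransferase, read 35.92, 24.62, 28.72 and 28.44 CPM untreated, 21.53, 20.61, 20.58 and 18.55 CPM after 10 Gy and 23.70, 19.51, 22.08 and 21.58 CPM after 20 Gy. Both irradiated groups lay below all untreated libraries. The log2 change was -0.48 ± 0.12 (adjusted p = 0.0293) after 10 Gy, the only 1 of the 10 genes called at that dose against 10.6% of all genes called lower, and -0.41 ± 0.13 (adjusted p = 0.043) after 20 Gy. Dnmt3b, low throughout, went from 1.456 ± 0.353 to 0.680 ± 0.176 CPM (log2 -1.07 ± 0.28, adjusted p = 0.0269), and Suv39h1 from 12.85 ± 1.341 to 9.806 ± 0.462 CPM (log2 -0.37 ± 0.11, adjusted p = 0.0406).

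These C56BL6 calls were close to the threshold. After 20 Gy, leaving out number 1, 2, 3 or 4 gave 4, 1, 0 and 0 calls, testing all genes with a count gave 0, and the block gave 5 (with Ezh2 and Uhrf1 added), against 24.3% of all genes lower. After 10 Gy, leaving out number 2, 3 or 4 gave 0 calls, and the block gave 2 (with Ezh2 added), against 19.7%. The summed fibroblast markers ran from 35130 to 57520 CPM untreated and from 17820 to 23780 CPM after 20 Gy. Summed keratinocyte markers ran from 2.457 to 867.6 CPM untreated, 3.229 to 199.3 CPM after 10 Gy and 3.057 to 256.5 CPM after 20 Gy. Summed adipocyte markers ran from 4.798 to 21.58 CPM untreated, 0.4155 to 1.982 CPM after 10 Gy and 0.4284 to 1.217 CPM after 20 Gy. The part of these cell types was not tested. Replicate 1 of the untreated C56BL6 group held 26.25 CPM of Uhrf1 against 5.780 to 9.767 CPM in the other 3, and 55.21 CPM of Mki67 against 8.909 to 15.62 CPM. The 2 doses differed in 0 of 10 genes and 0% of all genes by edgeR, with 0 genes at an unadjusted p under 0.05 (1.95% of all genes) and 0 by DESeq2.

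In wild mouse at 12 d edgeR called 0 of 10 genes after 10 Gy (0.264% of all genes; unadjusted p under 0.05 for Dnmt3a and 12.3% of all genes; 1 by DESeq2, Dnmt3a) and 0 after 20 Gy (0.0694% of all genes; unadjusted p under 0.05 for 2, Ezh2 and Dnmt3a, and 13.8% of all genes; 0 by DESeq2). Dnmt3a read 28.77, 26.07, 30.64 and 32.85 CPM untreated, 19.98, 19.16, 22.70 and 19.94 CPM after 10 Gy and 16.60, 15.89, 22.64 and 23.75 CPM after 20 Gy. Neither irradiated group overlapped the untreated libraries. Its log2 change was -0.51 ± 0.11 after 10 Gy (adjusted p = 0.116, with the block 0.0168) and -0.54 ± 0.16 after 20 Gy (adjusted p = 0.212, with the block 0.0165). The block called 1 gene after 10 Gy, against 6.72% of all genes lower, and 3 after 20 Gy, Dnmt3a, Dnmt3b and Ezh2, against 7.79%. With numbers 1 and 4 summed as 1 replicate, 0 genes were called at either dose, with or without the block. The 2 doses differed in 0 of 10 genes and 0% of all genes by edgeR, with 0 at an unadjusted p under 0.05 (0.251% of all genes) and 0 by DESeq2, and in 1 gene, Uhrf1, with the block, against 0.257% of all genes.

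The 12 d response to 20 Gy differed between A. cahirinus and C56BL6 in 4 of 10 genes, against 18.8% of all genes. The fitted change was lower in A. cahirinus for each. The log2 differences were -1.88 ± 0.59 for Uhrf1 (adjusted p = 0.0395) and -1.04 ± 0.25 for Dnmt1 (adjusted p = 0.0105). They were -0.82 ± 0.26 for Suv39h1 (adjusted p = 0.0424) and -0.56 ± 0.15 for Suz12 (adjusted p = 0.0199). Mean Dnmt1 and Suz12 did not fall in C56BL6. Dnmt1 was at 39.42 CPM untreated and 39.53 CPM after 20 Gy there, and Suz12 at 35.92 and 37.62 CPM. The untreated cells themselves differed in level, with Uhrf1 at 21.23 ± 2.503 CPM in A. cahirinus and 12.00 ± 9.662 CPM in C56BL6. Neither the part of sex nor that of the muscle markers in the population differences was tested. Leaving out number 1, 2, 3 or 4 gave 4, 2, 0 and 0 calls. Against wild mouse edgeR called 0 of 10 genes, against 3.35% of all genes, with 4 genes at an unadjusted p under 0.05 (Suz12, Dnmt1, Uhrf1 and Hells), as were 19.5% of all genes, and 3 by DESeq2. The block called 6, with 5 lower and Dnmt3a higher in A. cahirinus, against 23.3% of all genes, and 4 with wild mouse numbers 1 and 4 summed. Wild mouse and C56BL6 differed in 0 of 10 genes and 0% of all genes, with 0 genes at an unadjusted p under 0.05 (2.2% of all genes) and 0 by DESeq2, and 0 called with numbers 1 and 4 summed.

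**Figure D3:**
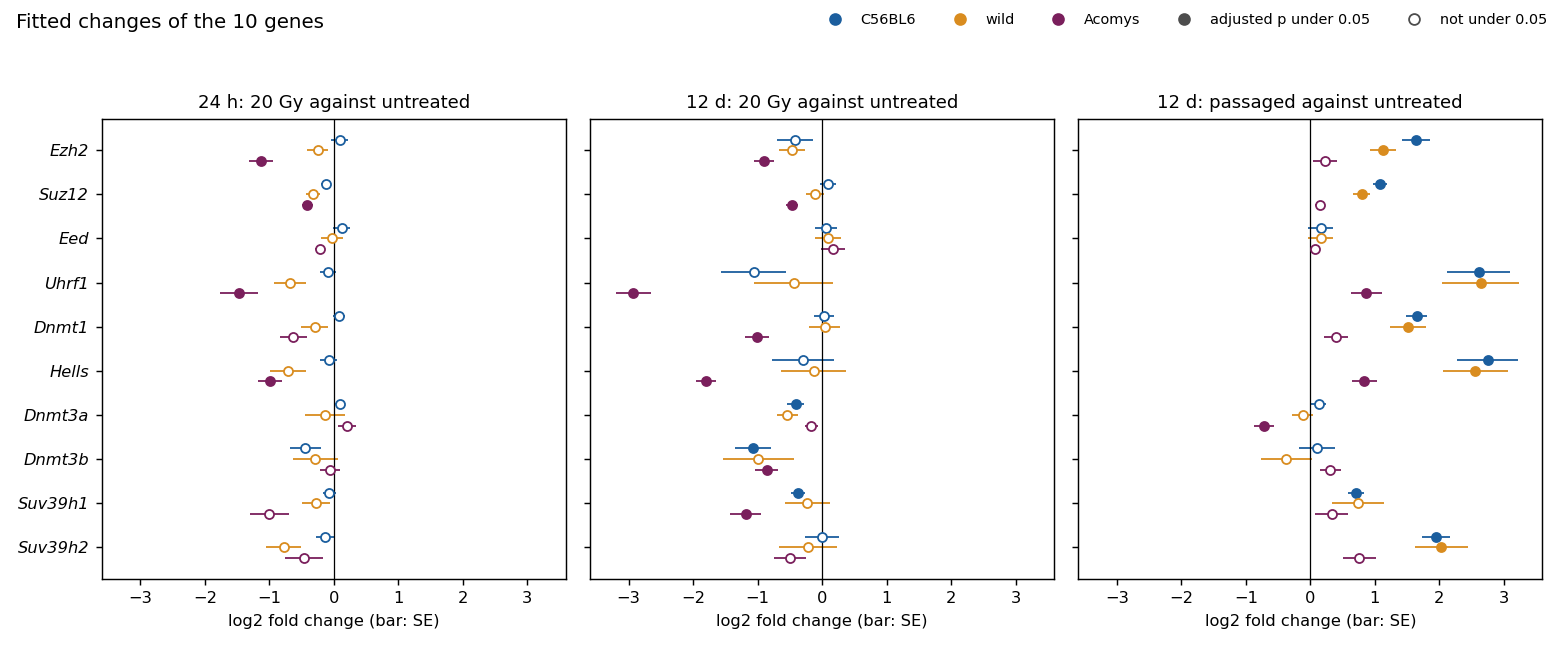
Fitted log2 fold changes (points) with their standard errors (bars) of the 10 genes in 3 comparisons, coloured by population; filled points passed an adjusted p under 0.05 in edgeR's test. In the middle panel Uhrf1 of A. cahirinus lies at -2.93, and in the right panel Hells and Uhrf1 of C56BL6 lie at 2.75 and 2.61.

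Passaging raised 7 of the 10 genes in C56BL6, 6 in wild mouse (0 with numbers 1 and 4 summed) and 2 in A. cahirinus, where Dnmt3a fell. The A. cahirinus count, 3 of 10 in either direction, was near the 25.8% of all genes called there. The effect of passaging in A. cahirinus was tested against that in C56BL6 and not against wild mouse. The untreated 12 d libraries are the reference here as in the irradiation comparisons, so the 2 kinds of comparison share them. In C56BL6, 7 of 10 genes were higher in the passaged culture, against 24.2% of all genes called higher: Hells, Uhrf1, Suv39h2, Dnmt1, Ezh2, Suz12 and Suv39h1. Leaving out any number gave 7 calls. Uhrf1 read 86.80, 60.52, 72.19 and 70.31 CPM in the passaged libraries and 26.25, 9.767, 6.223 and 5.780 CPM in the untreated ones, with no overlap. It was 6.09-fold higher (log2 2.61 ± 0.49, adjusted p = 0.00323). Hells was 6.72-fold higher (log2 2.75 ± 0.47, adjusted p = 0.00214), Suv39h2 3.87-fold (log2 1.95 ± 0.22, adjusted p = 0.00047) and Ezh2 3.13-fold (log2 1.64 ± 0.22, adjusted p = 0.000829). Dnmt1 rose by 1.65 ± 0.16 and Suz12 by 1.08 ± 0.11 on the log2 scale, and Suv39h1 by 0.71 ± 0.13 (adjusted p = 0.00266).

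Dnmt3a, Dnmt3b and Eed did not pass in that comparison. Dnmt3a was at 29.43 ± 4.714 CPM untreated and 31.96 ± 1.069 CPM passaged in C56BL6. Eed, at 36.19 ± 9.211 and 40.13 ± 6.464 CPM, overlapped widely between the groups. All 24 replication and division reference genes were called higher, with Mki67 at 22.92 ± 21.71 CPM untreated and 197.5 ± 28.54 CPM passaged, and in the passaged group summed keratinocyte markers ran from 1.847 to 402.8 CPM and adipocyte markers from 0.1816 to 0.8233 CPM. The part of these differences in the 7 genes was not tested.

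In wild mouse 6 of 10 genes were higher in the passaged culture, against 5.51% of all genes called higher: Uhrf1, Hells, Suv39h2, Dnmt1, Ezh2 and Suz12. Uhrf1 read 51.37, 62.33, 35.50 and 74.68 CPM passaged and 8.887, 4.352, 2.831 and 19.25 CPM untreated, with no overlap. The log2 changes were 2.64 ± 0.59 for Uhrf1 (adjusted p = 0.0324), 2.56 ± 0.50 for Hells (adjusted p = 0.0244) and 2.03 ± 0.41 for Suv39h2 (adjusted p = 0.0255). Dnmt1 changed by 1.52 ± 0.28 (adjusted p = 0.0201), Ezh2 by 1.13 ± 0.20 (adjusted p = 0.0193) and Suz12 by 0.80 ± 0.13 (adjusted p = 0.0158). Suv39h1 did not pass (log2 0.74 ± 0.40, adjusted p = 0.266). All 6 calls were lost when number 1, 2 or 4 was left out, and when numbers 1 and 4 were summed as 1 replicate. The share of all genes called in those refits was not taken, so the losses cannot be read as particular to these genes. The block called 7 genes, adding Suv39h1, against 31.9% of all genes in either direction, and 6 with numbers 1 and 4 summed.

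In A. cahirinus passaging moved 3 of 10 genes, against 25.8% of all genes called in either direction: Uhrf1 and Hells were higher and Dnmt3a was lower. Uhrf1 read 44.71, 20.21, 45.56 and 47.29 CPM passaged, where animal 2 fell within the untreated range of 18.82 to 23.78 CPM, and changed by 0.87 ± 0.24 (adjusted p = 0.0302). Hells changed by 0.84 ± 0.20 (adjusted p = 0.0188). Dnmt3a read 22.88, 32.32, 20.06 and 24.51 CPM passaged and 38.05, 45.29, 36.74 and 42.83 CPM untreated, without overlap. Its log2 change was -0.72 ± 0.16 (adjusted p = 0.0139). Ezh2, at 25.09 ± 3.765 CPM untreated and 29.84 ± 7.565 CPM passaged, did not pass. The block called 5 genes, 4 higher and Dnmt3a lower, against 49.5% of all genes in either direction. Leaving out animal 2 gave 6 calls and leaving out any other animal 0. Summed muscle markers ran from 1243 to 3864 CPM in the passaged group, and their part was not tested.

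The effect of passaging differed between A. cahirinus and C56BL6 in 7 of 10 genes, in each case with a lower fitted change in A. cahirinus, against 27.7% of all genes. The log2 differences were -1.92 ± 0.51 for Hells (adjusted p = 0.0137), -1.75 ± 0.55 for Uhrf1 (adjusted p = 0.0304), -1.42 ± 0.30 for Ezh2 (adjusted p = 0.00401) and -1.26 ± 0.27 for Dnmt1 (adjusted p = 0.00382). They were -1.20 ± 0.34 for Suv39h2 (adjusted p = 0.0183), -0.94 ± 0.13 for Suz12 (adjusted p = 0.000321) and -0.86 ± 0.21 for Dnmt3a (adjusted p = 0.00747). Leaving out number 1, 2, 3 or 4 gave 6, 5, 2 and 3 calls. The part of sex, or of the muscle markers, in these differences was not tested.

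Set against the passaged culture in place of the untreated one, the 20 Gy cells held less RNA of 9 genes in C56BL6, 6 in wild mouse and 8 in A. cahirinus, and these comparisons share libraries with both of the preceding kinds. In C56BL6 9 of 10 genes were lower, against 21.2% of all genes, and leaving out any number gave 9. Uhrf1 was 12.9-fold lower (log2 -3.69 ± 0.23, adjusted p = 2.56e-05) and Hells 8.35-fold lower (log2 -3.06 ± 0.26). Dnmt3a, 1.48-fold lower (log2 -0.57 ± 0.08, adjusted p = 0.000744), was among the 9, and Eed was not. In wild mouse 6 of 10 were lower, against 6.1% of all genes, with Uhrf1 8.54-fold lower (log2 -3.09 ± 0.39, adjusted p = 0.00691); leaving out number 1 or 4, or summing the 2, gave 0 calls, leaving out number 2 gave 3, and the block called 8, against 18.3% of all genes, also with the sum. In A. cahirinus 8 of 10 were lower, against 23% of all genes. Uhrf1 was 14.1-fold lower there (log2 -3.82 ± 0.37, adjusted p = 0.000206), and Dnmt3a was higher, by 0.54 ± 0.15 (adjusted p = 0.0213). Leaving out a number gave 7 to 9 calls in A. cahirinus.

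Eed passed the test in 0 of the 21 comparisons within populations. Its fitted log2 changes ran from -0.25 (A. cahirinus, 24 h, 10 Gy) to 0.31 (wild mouse, 24 h, 10 Gy), and with the block it was called in 2. Uhrf1 and Hells passed in 9 each, Ezh2 in 8, Suz12 in 7 and Dnmt1 in 6. Dnmt3a, Suv39h1 and Suv39h2 passed in 5 each, and Dnmt3b in 4. Many of these comparisons share libraries, so the counts are a description.

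The other genes of these pathways were read from lists of PRC2 partners, PRC1, DNA methylation partners and readers, heterochromatin factors and histone demethylases. After 20 Gy at 12 d in A. cahirinus, 4 of 9 PRC2 partners, 6 of 19 PRC1 genes, 3 of 13 tested DNA methylation partners, 7 of 17 heterochromatin genes and 1 of 10 demethylases were lower and 0 were higher, where 18.1% of all genes were lower and 13.8% higher. The medians of the log2 changes were -0.27, -0.21, -0.22, -0.29 and -0.20, beside -0.88 for the 10 genes and 0.00 for all genes tested. Cdca7, which works with Hells, went from 20.37 ± 3.875 to 2.345 ± 0.834 CPM (log2 -3.10 ± 0.26, adjusted p = 0.000232), and its relative Cdca7l from 12.29 ± 3.468 to 3.221 ± 1.322 CPM. In C56BL6 after 20 Gy, 2 of 9 PRC2 partners, 5 of 19 PRC1 genes, 3 of 15 DNA methylation partners, 3 of 18 heterochromatin genes and 1 of 10 demethylases were lower, where 13.6% of all genes were lower. Those higher were 1, 1, 1, 1 and 0, where 13% of all genes were higher. Tet1, which oxidises methylcytosine, went from 3.986 ± 0.858 to 1.309 ± 0.336 CPM (log2 -1.58 ± 0.26, adjusted p = 0.00458), and Rybp, a PRC1 subunit, changed by -1.16 ± 0.20 (adjusted p = 0.00544). Phc3 of PRC1 (0.40 ± 0.09) and Mphosph8, a reader of H3K9 methylation (0.35 ± 0.06), were higher. The Phc3 call was lost without number 2 (adjusted p = 0.115) and the Mphosph8 call without number 4 (adjusted p = 0.0515). Without number 3 the calls of Tet1 (adjusted p = 0.0515), Phc3 (adjusted p = 0.0958) and Mphosph8 (adjusted p = 0.075) were lost. In wild mouse 0 genes of the 5 lists were called after 20 Gy by edgeR, where 0.0694% of all genes were.

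Ezh1, the alternative catalytic subunit of PRC2, fell on passaging where Ezh2 rose in the mice. In C56BL6 it read 47.98, 42.25, 48.44 and 52.63 CPM in untreated cells at 12 d and 26.25, 32.42, 31.32 and 31.81 CPM in passaged cells, without overlap. The log2 change on passaging was -0.64 (adjusted p = 0.00157) in C56BL6, -0.54 (adjusted p = 0.0386) in wild mouse and -0.39 (adjusted p = 0.0102) in A. cahirinus. The wild mouse and A. cahirinus calls were lost without number 1 (adjusted p = 0.226 and 0.0921) or number 4 (adjusted p = 0.209 and 0.0641), and the wild mouse call with numbers 1 and 4 summed (adjusted p = 0.2). Lower Ezh1 was not confined to passaged cells. In A. cahirinus at 12 d it was at 38.66 ± 1.579 CPM untreated and 29.92 ± 1.884 CPM passaged. After 10 Gy it was at 28.4 ± 2.273 CPM and after 20 Gy at 30.22 ± 4.125 CPM. The untreated, 10 Gy and 20 Gy means were 47.83, 40.62 and 43.22 CPM in C56BL6 and 50.76, 44.24 and 43.96 CPM in wild mouse. Per kilobase, untreated C56BL6 cells at 12 d held 6.428 ± 0.573 CPM of Ezh1 and 2.28 ± 0.641 CPM of Ezh2, and passaged cells held 4.093 ± 0.381 CPM of Ezh1 and 7.08 ± 1.49 CPM of Ezh2. In untreated cells at 12 d Ezh1 was likewise the higher of the pair in wild mouse (6.822 against 2.57 CPM per kilobase) and A. cahirinus (8.848 against 5.3). In passaged wild mouse cells Ezh2 was at 5.725 ± 0.981 and Ezh1 at 4.797 ± 0.374. In passaged A. cahirinus cells Ezh2 was at 6.307 ± 1.599 and Ezh1 at 6.848 ± 0.431. Libraries of the pair overlapped in the passaged cells of both, so no order is given there. At 24 h untreated C56BL6 cells held more Ezh2 (8.82) than Ezh1 (3.549).

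On passaging in C56BL6, Cbx7, a chromodomain subunit of PRC1, went from 9.479 ± 1.722 to 1.626 ± 0.461 CPM (log2 -2.53 ± 0.25, adjusted p = 0.000309), and in wild mouse from 13.30 ± 4.110 to 4.002 ± 0.918 CPM (log2 -1.76 ± 0.26, adjusted p = 0.0133). Cdca7l rose by 2.32 ± 0.27 in C56BL6 and 2.40 ± 0.42 in wild mouse, and Cdca7 by 2.11 ± 0.63 and 2.03 ± 0.30. Rybp changed by -1.37 ± 0.24 in C56BL6, and Kdm4b, an H3K9 demethylase, by -0.77 ± 0.13 in wild mouse. In A. cahirinus Phf19, a PRC2 partner, was 1.721 ± 0.347 CPM untreated and 5.155 ± 1.252 CPM passaged (log2 1.55 ± 0.24, adjusted p = 0.00323), and Tet2 changed by -1.01 ± 0.20 (adjusted p = 0.00811). Cbx2 changed by -0.59 ± 0.16 there, and Kdm4a by 0.30 ± 0.06. Leaving out single numbers ended the call of Cdca7 in C56BL6 (number 2, 3 or 4; adjusted p up to 0.105), of Cbx7, Cdca7, Cdca7l and Kdm4b in wild mouse (number 1 or 4; adjusted p up to 0.175; with 1 and 4 summed, adjusted p of 0.122 to 0.142), and of Tet2, Cbx2 and Kdm4a in A. cahirinus (number 1 or 3; adjusted p up to 0.135).

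**Figure D4:**
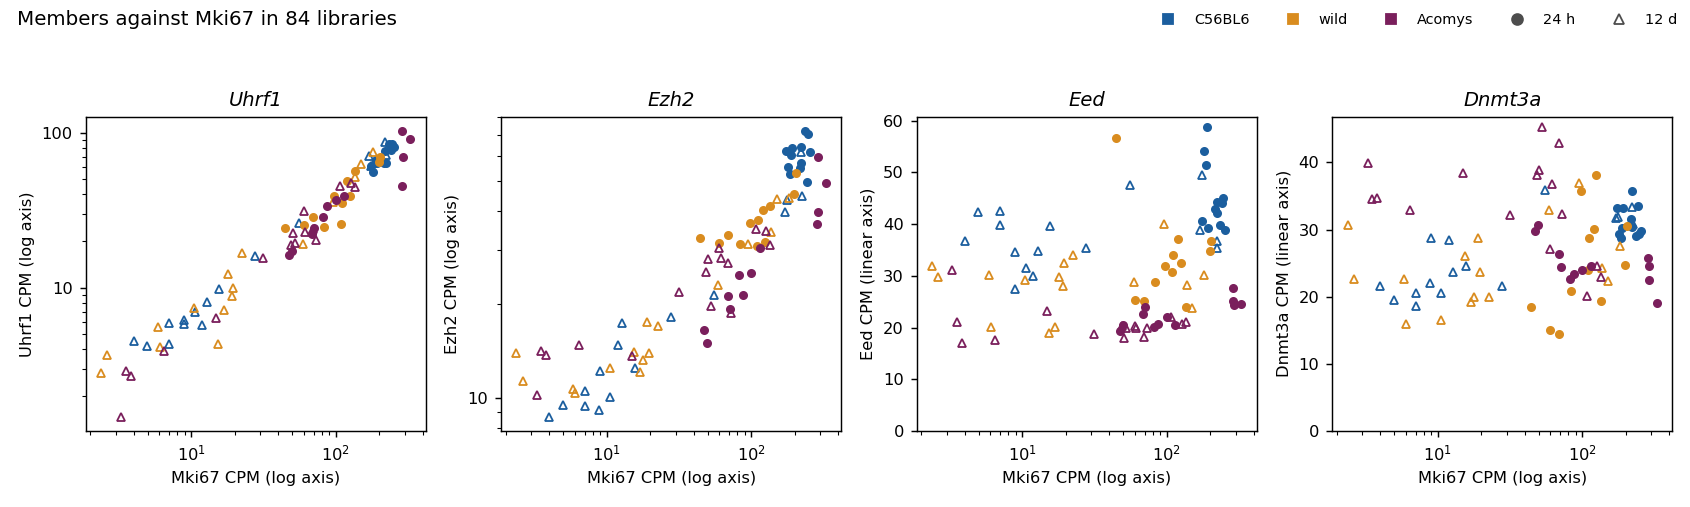
CPM of Uhrf1 and Ezh2 (log axes) and of Eed and Dnmt3a (linear axes) against CPM of Mki67 (log axis) in the 84 libraries; filled circles are 24 h, open triangles 12 d, and colours are populations. Uhrf1 follows Mki67 closely in all populations, Eed hardly moves, and Dnmt3a is higher where Mki67 is lower in A. cahirinus.

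Over the 28 libraries of each population, which share batches, animals and treatments, the log2 CPM of Uhrf1 and Mki67 correlated with Pearson's r of 1.0 in C56BL6, 0.97 in wild mouse and 0.98 in A. cahirinus. For Ezh2 the values were 0.98, 0.93 and 0.86, and for Eed 0.51, 0.24 and 0.23. Dnmt3a differed most between populations, with 0.83, 0.27 and -0.63. In A. cahirinus at 12 d mean Dnmt3a was 40.73 CPM untreated and 35.55 CPM after 20 Gy, and Mki67 was also lower after 20 Gy. The genes most alike, by the lowest of the 3 correlations among 10529 genes searched, were Clspn and Mcm5 for Uhrf1 (0.98 each), Wdhd1 and Ncapg2 for Hells (0.98 each), and Rfc5 (0.95) and Lig1 (0.94) for Ezh2. For Suz12 they were Topbp1 (0.95) and Atad5 (0.94), for Dnmt1 Nup155 (0.95) and Pola1 (0.94), for Suv39h1 Pold1 (0.89) and Nup85 (0.87), and for Suv39h2 Chek1 (0.91) and Asf1b (0.89). The likeness was looser for Dnmt3b, with Smarcd1 (0.77) and Pus7l (0.75), Dnmt3a, with Plekhg2 (0.72) and Col11a1 (0.69), and Eed, with Gtf2h1 (0.66) and Fkbp1a (0.65).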

How the data were processed

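RNA-seq libraries of 84 samples were used as deposited gene counts. Per the submitters' processing notes the authors used Trim Galore, HISAT2 and featureCounts; per the file headers the counter was featureCounts 2.0.3, run without strand, on Ensembl 108 (GRCm39) for the mice and AcoCah2 for A. cahirinus. The kit was stranded, so reads of overlapping antisense genes cannot be told apart in these counts. Of 56980 mouse rows, 56236 received a symbol from GENCODE M39, and 18109 symbols were found in both tables. The 10 genes, the lists and the rule for named genes were chosen with earlier results of these data known. Named are all 10 genes, a set of partners (Ezh1, Tet1, Tet2, Cbx2 and Cdca7 among them), the 2 largest rises and falls among list genes past the threshold after 20 Gy and after passaging at 12 d, and the 2 most alike genes of each.

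Each comparison was fitted on its own libraries with edgeR 4.0.16 (R 4.3.3): TMM scaling, filterByExpr, quasi-likelihood test, Benjamini-Hochberg adjustment over all genes tested, threshold 0.05. SE is the log2 change divided by the root of F. CPM are TMM-scaled within a population over 28 libraries, and correlations used log2 CPM with a prior count of 2. Population differences were interactions over genes shared by symbol. Alternatives were RLE scaling, no expression filter, a fit of all groups together, DESeq2 1.42.0, a block for the replicate number, leaving out each number, and wild mouse numbers 1 and 4 summed. Scripts were tested on simulated data.

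Replicate numbers pair the libraries, since each number carries 1 animal code in the library names. Deviations from the group means correlated at a mean r of 0.5 to 0.89 between libraries of the same number (lowest single value 0.36) over 21 comparisons, and at -0.29 to -0.12 between different numbers. No duplicated library was found among replicate pairs of a group. Nothing in the labels says more on how cultures were made. Without the block, p-values set a change against the spread between these 4 cultures and leave out the pairing. With the block, they set it against the spread of the change among the 4 numbers.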

Additional observations from a re-analysis of the deposited data

Results flagged for a closer look

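Single libraries lay far from the other 3 of their group in 10 of 210 groups of 4, where chance alone flags about 1 in 20 groups. In C56BL6 at 12 d replicate 1 was the high library in 4 of them. Ezh2 was at 18.21 CPM there after 10 Gy, against 9.445 to 10.56 CPM in the rest, and at 17.42 CPM after 20 Gy, against 8.716 to 9.511 CPM. Suz12 was at 43.68 CPM untreated, against 33.18 to 33.55 CPM, and at 42.98 CPM after 20 Gy, against 35.29 to 36.45 CPM. At 24 h after 10 Gy, C56BL6 replicate 1 held 2.18 CPM of Dnmt3b, against 1.002 to 1.154 CPM, and replicate 2 held 56 CPM of Uhrf1, against 63.45 to 64.03 CPM. In wild mouse at 24 h after 10 Gy, replicate 1 held 25.89 CPM of Dnmt1, against 68.59 to 71.29 CPM, and replicate 3 held 35.2 CPM of Uhrf1, against 24.32 to 25.55 CPM. Wild mouse replicate 3 at 12 d after 20 Gy held 0.4708 CPM of Suv39h2, against 0.9532 to 1.048 CPM. A. cahirinus replicate 2 in the passaged group held 20.21 CPM of Uhrf1, against 44.71 to 47.29 CPM.

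The response differed between A. cahirinus and C56BL6 by an edgeR interaction test in 13 cases, all with a lower fitted change in A. cahirinus. After 20 Gy at 24 h these were Ezh2 (log2 difference -1.23) and Uhrf1 (-1.39). After 20 Gy at 12 d they were Suz12 (-0.56), Dnmt1 (-1.04), Uhrf1 (-1.88) and Suv39h1 (-0.82). On passaging they were Ezh2 (-1.42), Suz12 (-0.94), Dnmt1 (-1.26), Dnmt3a (-0.86), Uhrf1 (-1.75), Hells (-1.92) and Suv39h2 (-1.20). All A. cahirinus libraries and those of C56BL6 numbers 3 and 4 carried Ddx3y, and the part of sex, or of the muscle markers, was not tested.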

How the results depend on the processing

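Counts are of the 10 genes called by edgeR at an adjusted p under 0.05. RLE scaling left all 28 counts within 1.5 times. Without the expression filter the C56BL6 12 d 20 Gy count went from 3 to 0. DESeq2 moved 5 counts: wild mouse 10 Gy from 0 to 1 at 24 h and from 0 to 1 at 12 d, A. cahirinus 24 h 10 Gy from 3 to 6, A. cahirinus 20 Gy against 10 Gy from 0 to 3, and the 12 d difference between A. cahirinus and wild mouse from 0 to 3. With all groups in one fit, A. cahirinus 20 Gy against 10 Gy gave 3 and the difference from wild mouse 1, and the balance of the A. cahirinus passaging calls reversed, from 2 higher and 1 lower to 1 lower (Dnmt3a) alone. The cause was not tested.

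The replicate block, which takes out differences between animals, moved 15 counts. In C56BL6 it gave 3 at 24 h 10 Gy, 2 at 12 d 10 Gy and 5 at 12 d 20 Gy. In wild mouse it gave 4 at 24 h 20 Gy, 1 at 12 d 10 Gy, 3 at 12 d 20 Gy and 1 for 20 Gy against 10 Gy. In A. cahirinus it gave 8 and 7 at 24 h after 10 and 20 Gy, 2 at 12 d 10 Gy, 5 for 20 Gy against 10 Gy and 5 on passaging. For the population differences it gave 7 (A. cahirinus and C56BL6, 24 h), 3 (A. cahirinus and wild mouse, 24 h) and 6 (the same pair, 12 d), and no other count moved by over 1.5 times. Summing wild mouse numbers 1 and 4, an alternative chosen after seeing the data, gave 0 on passaging and 0 for 20 Gy against passaged, and with the block 1 for 20 Gy against 10 Gy and 4 for the 12 d difference from A. cahirinus.

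Leaving out each number gave these ranges. In C56BL6 they were 0 to 1 at 12 d 10 Gy and 0 to 4 at 12 d 20 Gy. In wild mouse they were 0 to 6 on passaging and 0 to 7 for 20 Gy against passaged. In A. cahirinus they were 0 to 4 and 0 to 6 at 24 h after 10 and 20 Gy, 0 to 6 for 20 Gy against 10 Gy and 0 to 6 on passaging. For the differences between A. cahirinus and C56BL6 they were 0 to 2 at 24 h, 0 to 4 at 12 d 20 Gy and 2 to 6 on passaging. Of 19 printed log2 changes of single genes that use wild mouse 12 d libraries, 16 lost their call with numbers 1 and 4 summed, and 2 with the sum and the block. Of 106 printed log2 changes of single genes, none turned direction under any alternative run, and leaving out a number ended the call in 138 of 424 refits. Dnmt3b and Suv39h2, at 0.2897 to 6.555 CPM, rest on the fewest reads.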
